A study of Rattus norvegicus with 15 samples.

Results

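Rat bone marrow mesenchymal stem cells given a lentivirus with a short hairpin RNA against Rac1 (labelled shRac1) were compared with cells given the control hairpin virus (labelled shLuci), both in normal culture. All genes of the deposited expression table entered the comparison, and the libraries were chosen by their titles alone: 3 labelled shRac1 and 3 labelled shLuci, 6 of the 15 in the study. The cells of all groups were taken from femoral marrow (strain Sprague Dawley), used at passages 3 to 5 and grown in DMEM rich in glucose with fetal bovine serum. The study also holds 3 libraries of uninfected cells (BMSC) and 3 of each hairpin after oxygen and glucose deprivation (OGD: 12 h in medium without sugar at 1% O2, then 24 h of reoxygenation). Age and sex of the animals, the hairpin sequences, the infection rate and the time between infection and harvest are not given in the sources used here. Both groups compared here carry a lentivirus, so neither is free of an effect of infection, and BMSC is the group without it. Whether replicates are separate cultures or animals is not stated in the labels. The p-values therefore measure only the spread between samples, pooled over the 15 libraries, which may be technical.

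Rac1 is a small GTPase that cycles between a GTP-bound and a GDP-bound form. When bound to GTP it drives actin branching at the cell edge through the WAVE complex and Arp2/3, slows actin disassembly through PAK and LIM kinases acting on cofilin, and is a subunit of some NADPH oxidases, which make superoxide. Mesenchymal stem cells of the marrow are adherent, matrix-rich stromal cells that can form bone, cartilage and fat and that secrete growth factors and chemokines.

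Values are FPKM (fragments per kilobase of transcript, scaled to the mapped fragments of the library) for 12169 genes, and depth in reads is unknown. The FPKM of the 6 libraries summed to between 481722 and 512263, with 42 to 61 genes at 0 and a mean correlation across genes with the other libraries of their group of at least 0.989. BMSC replicate 2 stood apart, with a sum of 628685 and 144 genes at 0. In the comparison of shRac1 with shLuci it enters only through the pooled estimate of spread and the choice of tested genes. The counts of calls over gene lists are therefore also given without it where they differ by more than 1.5 times. It is also part of every BMSC mean given below. The tested genes were the 11515 with at least 1 FPKM in at least 3 libraries, and those with an adjusted p below 0.05 are referred to as called (limma on log2(FPKM + 0.5), Benjamini-Hochberg over all genes tested). Log2 changes are shRac1 minus shLuci on that scale, which understates the change of genes with low FPKM. Their SEs and p-values use a spread pooled over all 15 libraries, not that of the 6 values printed beside them. A gene that was not called is therefore not shown to be unchanged. Without BMSC replicate 2, 4296 genes were called between shRac1 and shLuci, against 1928 with it.

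Of 16 listed surface markers of mesenchymal stem cells 10 were tested, and 8 of these were not called. Of the others 1 was called higher and 1 lower (2 and 3 without BMSC replicate 2). Over all tested genes 6.92% were called higher and 9.82% lower (17.0% and 20.4% without BMSC replicate 2). Thy1, the surface glycoprotein CD90 that marks these cells, stood at 760.2 FPKM in shLuci and 654 FPKM in shRac1, and Pdgfra, a growth factor receptor, at 14.2 and 17.9 FPKM. Anpep, the aminopeptidase CD13, rose from 2.19 to 11.3 FPKM, and Cd81, a tetraspanin, fell from 349 to 260.4 FPKM. Of the 14 macrophage markers listed 3 were tested, Cd14 among them at 7.37 and 7.96 FPKM, with Cd68 at 0.827 and 0.795 and Fcer1g at 0.869 and 0.667, and their summed level ran from 8.03 to 10.2 FPKM in shLuci and from 8.54 to 10.2 in shRac1. Of 12 endothelial markers 3 were tested, with a summed level of 10.4 to 13.8 FPKM in shLuci and at least 17.6 FPKM in each shRac1 library, and Pecam1, Cdh5 and Vwf were not analysed here. Egfl7, a secreted protein of vessels, rose from 10.3 to 17.4 FPKM, a call lost without shLuci replicate 3 (limma adjusted p = 0.0506), Flt1, a VEGF receptor, fell from 1.33 to 0.144 FPKM, and Erg was not called. Among markers of mesothelial and epithelial cells, of 16 listed 4 were tested, and their summed level was 9.96 to 12.1 FPKM in shLuci and 30.2 to 31.8 FPKM in shRac1. These are whole-culture RNA measurements, in which more cells of a type and more RNA per cell cannot be told apart.

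The targeted gene came first. Rac1 (ENSRNOG00000001068, chromosome 12, 13090172 to 13111873), in the coordinates of the deposited table (genome build not stated), read 165, 158 and 146 FPKM in the 3 libraries labelled shLuci and 148, 151 and 142 FPKM in the 3 labelled shRac1. The ranges overlap, and the log2 change of -0.09 (SE 0.08) was not called (limma adjusted p = 0.577). A two-sided exact permutation test gave p = 0.3, and 3 against 3 libraries allow no p below 0.1. With libraries weighted by quality, an alternative fit, Rac1 was called at a log2 change of -0.07 (limma adjusted p = 0.0295). The estimation of those weights did not converge, and that fit called 3949 genes higher and 4290 lower of 11515. The FPKM of Rac1 therefore do not separate the groups, so every direction below rests on the sample titles, and shRac1 and shLuci stand for the libraries so labelled.

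With all libraries, Rac effectors were called about as often as tested genes in general. Of 26 tested Rac effectors (WAVE and Arp2/3 subunits, PAK and LIM kinases, cofilins) 1 was called higher and 3 lower (2 and 4 without BMSC replicate 2), with a median log2 change of -0.02, whereas over all tested genes 6.92% were called higher and 9.82% lower, with a median of -0.01. Limk2, a LIM kinase that inactivates cofilin, was the steadiest of these, falling from 15.5, 14.6 and 15.2 FPKM in shLuci to 9.62, 10.3 and 9.55 FPKM in shRac1 (log2 change -0.60, SE 0.08, limma adjusted p = 0.000256). The 3 shRac1 libraries lay below the 3 shLuci libraries without overlap, a separation that 5471 of the 11515 tested genes showed in either direction (47.5%). The other 3 calls, Cfl2, Arpc5 and Pak3, were each lost under some alternative, Arpc5 without shLuci replicate 1 or 3 or shRac1 replicate 1 or 2 (limma adjusted p up to 0.0771) and Pak3 without any 1 library but shLuci replicate 3 (up to 0.213). Cfl2 was lost under quantile normalization and rescaling to a common total (0.0709 and 0.122).

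Among 25 tested small GTPases and regulators of Rac, 4 rose and 4 fell (7 and 7 without BMSC replicate 2). Rhob, an endosomal GTPase that growth factors and stress induce, rose from 152 ± 6.54 to 220.3 ± 7.11 FPKM (mean ± SD, n = 3), and Rhoj, a relative of Cdc42, from 19.6 ± 0.223 to 32.4 ± 1.40 FPKM. Rnd1, which counters RhoA, rose by a log2 change of 0.71, and Chn1, a GTPase-activating protein for Rac, by 0.40. Arhgap22, another Rac GTPase-activating protein, fell from 10.0 to 6.64 FPKM. With any 1 of the 6 libraries left out only 1 to 2 members were called lower, since Rhoc, Rhou and Elmo1 then lost their calls in 6, 4 and 4 of the 6 fits. Rac3, the close relative of Rac1, stood at 0.815, 0.949 and 1.34 FPKM in shLuci and 0.784, 1.26 and 0.505 FPKM in shRac1 and was not called (log2 change -0.21, limma adjusted p = 0.685). Rac2 was not analysed here.

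Across the transcriptome 1928 of 11515 genes were called (16.7%), 797 higher and 1131 lower in shRac1. A change of at least 2-fold was called for 210 genes upward (1.82%) and 245 downward (2.13%). Without BMSC replicate 2 the calls numbered 1952 higher (17.0%) and 2344 lower (20.4%), and all 1928 were among them. List counts are to be read against 6.92% higher and 9.82% lower. The counts in brackets without BMSC replicate 2 are to be read against 17.0% and 20.4%. The authors' deposited table of this pair lists 545 genes as higher in shRac1 and 615 as higher in shLuci, with p-values up to 0.0497 and q-values up to 0.134. Of its 1160 genes, 1096 were tested here and 910 were called, all in the table's direction.

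**Figure D1:**
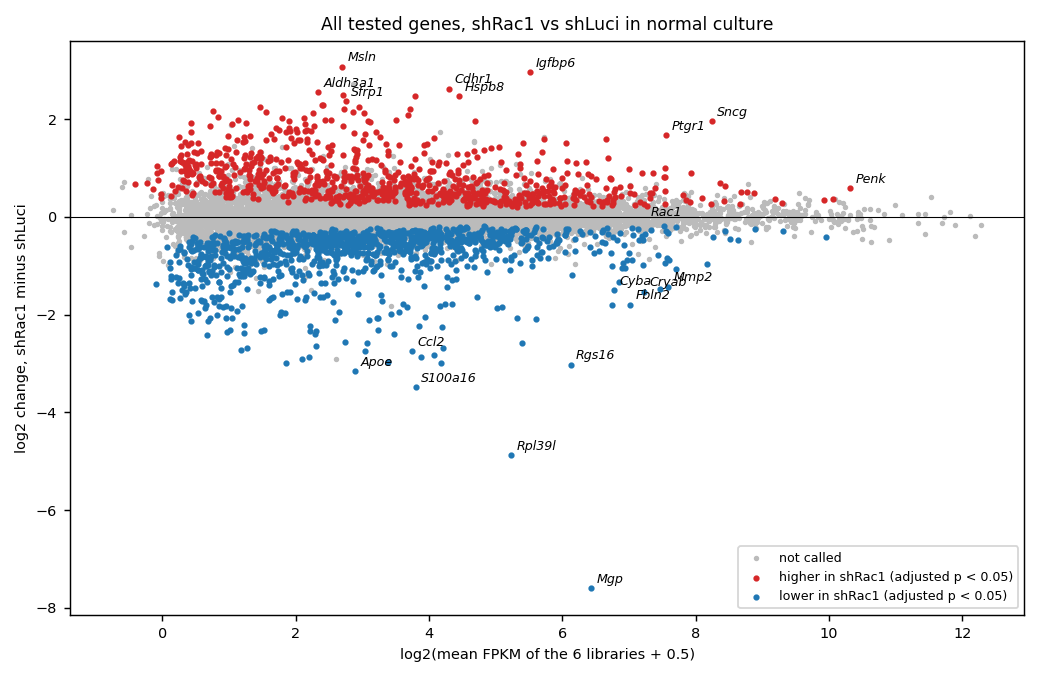
Each point is 1 tested gene: the x axis gives its level as log2 of mean FPKM over the 6 libraries plus 0.5, and the y axis its log2 change, shRac1 minus shLuci. Red genes were called higher (797) and blue lower (1131). Mgp at -7.61 and Rpl39l at -4.88 lie farthest below 0, Msln at 3.07 and Igfbp6 at 2.96 farthest above, and Rac1 sits near 0.

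The largest falls included genes for a calcium-binding protein, a lipid carrier and a lysosomal protease. S100a16, a calcium-binding protein of the S100 family, read 27.1, 24.7 and 23.4 FPKM in shLuci and 1.40, 1.99 and 1.99 FPKM in shRac1 (log2 change -3.49, SE 0.24, limma adjusted p = 6.55e-07). Apoe, the lipoprotein component that carries cholesterol to cells, read 13.6, 12.7 and 12.2 in shLuci and 1.22, 1.12 and 0.674 FPKM in shRac1 (log2 change -3.16, SE 0.22, limma adjusted p = 6.4e-07). Ctsz, a lysosomal cysteine protease, read 8.41, 6.74 and 5.95 in shLuci and 0.412, 0.452 and 0.606 FPKM in shRac1 (log2 change -2.92). Every shRac1 library lay below every shLuci library for these genes, with gaps wider than the spread within a group. The rule that picked the largest falls required groups without overlap, so this separation is no added evidence. Fstl3, a secreted inhibitor of activin, fell from 25.5 ± 0.931 to 3.08 ± 0.131 FPKM (mean ± SD, n = 3), Rassf4, a RAS-association domain protein, from 31.7 ± 1.52 to 3.53 ± 0.193, and Palmd, palmdelphin, from 18.1 ± 0.895 to 1.87 ± 0.345. Wfdc1, a secreted protein with a WAP domain, fell from 72.1 to 11.5 FPKM, Ptger3, the EP3 receptor for prostaglandin E2, from 13.9 to 1.95, and Sulf2, which trims sulfate from heparan sulfate outside the cell, from 7.77 to 1.14. Rpl39l, a paralogue of the ribosomal protein gene Rpl39, fell from 72.2 to 2.07 FPKM. Its reads could be shared with Rpl39, and how they were divided is not stated. By absolute level the largest called losses included Mmp2 (280.0 to 103 FPKM), a matrix metalloproteinase that cleaves basement membrane collagen, Prss23, a secreted serine protease (382 to 195), Aebp1, a collagen-binding matrix protein (259 to 92.3), and Cadm4, a cell adhesion molecule (167 to 47.2).

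The largest rises mixed secreted regulators, transporters and enzymes. Igfbp6, a secreted binding protein that prefers insulin-like growth factor II, read 10.5, 10.2 and 9.05 FPKM in shLuci and 82.0, 83.3 and 75.8 FPKM in shRac1 (SE of the log2 change 0.22, limma adjusted p = 1.24e-06). Cdo1, which oxidises cysteine, read 4.29, 3.89 and 3.09 in shLuci and 19.6, 23.5 and 25.9 FPKM in shRac1 (log2 change 2.47, SE 0.14, limma adjusted p = 1.19e-07). Sncg, gamma-synuclein, read 129, 121 and 119.6 in shLuci and 444, 478 and 518 FPKM in shRac1 (log2 change 1.96, SE 0.21, limma adjusted p = 2.92e-05). No shLuci library reached the level of any shRac1 library for these genes, which the rule that picked the largest rises also required. Slc38a4, an amino acid transporter, rose from 4.16 to 21.0 FPKM and Sgk1, a serum- and glucocorticoid-induced kinase, from 4.45 to 20.4, while the rise of Anpep is given above. Cdhr1, a cadherin-related protein known from photoreceptors, rose from 5.04 to 33.5 FPKM, Abcc9, the sulfonylurea receptor subunit of potassium channels, from 2.23 to 12.3, and Aoc3, an amine oxidase of the cell surface, from 1.85 to 10.4. Mcpt8l2, a mast cell protease-like gene of a multigene family whose members may share reads, rose from 1.46 to 10.6 FPKM. Abi3bp, a matrix protein, rose by a log2 change of 1.97, a call lost without shLuci replicate 1 (limma adjusted p = 0.0624) or shRac1 replicate 1 (0.0509). Penk, which encodes the enkephalin precursor, had the largest gain in FPKM among called genes without overlap of the groups, from 1118, 1021 and 928 FPKM in shLuci to 1588, 1549.6 and 1448 FPKM in shRac1 (log2 change 0.58, limma adjusted p = 0.00382). Ptgr1, a reductase that inactivates leukotriene B4 and 15-oxo-prostaglandins, rose from 89.6 to 285 FPKM.

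**Figure D2:**
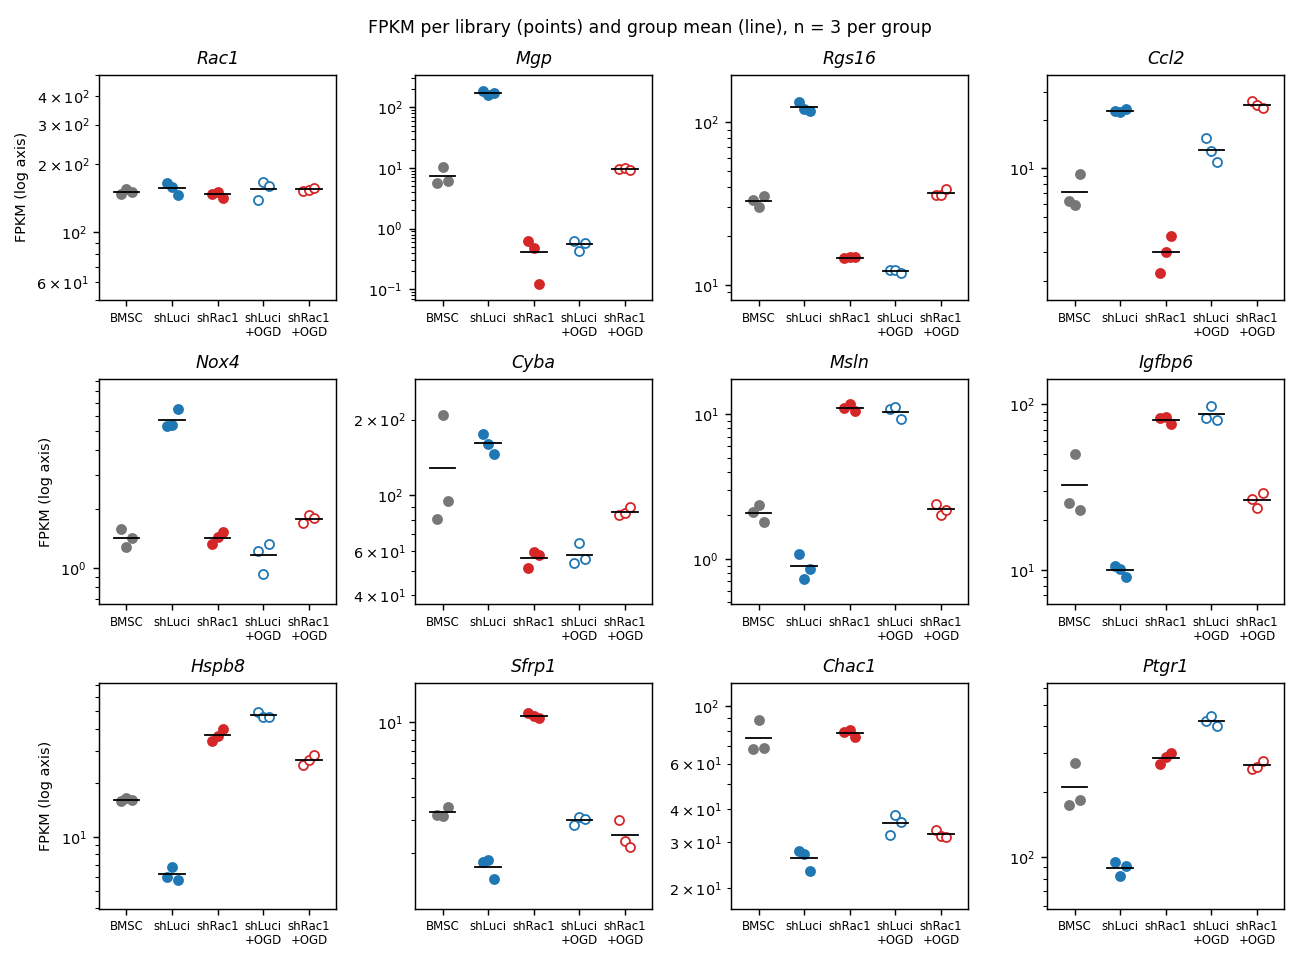
FPKM of 12 genes in each of the 15 libraries (points, log axis) with the group mean as a line, n = 3 in each group. Rac1 stays level over the 5 groups. Mgp, Rgs16, Ccl2, Nox4 and Cyba are lower in shRac1 than in shLuci, and Msln, Igfbp6, Hspb8, Sfrp1, Chac1 and Ptgr1 are higher, with no overlap between those groups, while the open symbols give the hairpin pair after OGD.

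Enzymes that make or remove oxygen radicals went both ways. Of 18 tested genes for NADPH oxidases and peroxide metabolism 2 rose and 3 fell (3 and 6 without BMSC replicate 2), with a median of -0.07. Nox4, an oxidase that releases hydrogen peroxide and does not need Rac, read 5.31, 5.39 and 6.47 FPKM in shLuci and 1.33, 1.43 and 1.53 FPKM in shRac1. Cyba, the p22phox subunit shared by several oxidases, read 176, 160.3 and 146 in shLuci and 51.4, 59.8 and 57.9 FPKM in shRac1 (log2 change -1.50, SE 0.26). Sod3, the superoxide dismutase of the extracellular space, read 31.9, 30.9 and 26.3 in shLuci and 6.97, 5.41 and 5.24 FPKM in shRac1 (log2 change -2.25, SE 0.13, limma adjusted p = 1.64e-07). For these 3 genes every shRac1 library lay below every shLuci library. Xdh, whose product makes uric acid and can yield superoxide, read 1.03, 0.97 and 1.04 FPKM in shLuci and 5.68, 5.30 and 5.29 FPKM in shRac1 (log2 change 1.97, limma adjusted p = 3.87e-08), and Gpx3, the secreted glutathione peroxidase, rose from 9.66 to 16.8 FPKM. The other superoxide dismutases, catalase and the peroxiredoxins tested were not called, Sod2 at 28.1 and 32.7 FPKM and catalase (Cat) at 45.6 and 41.9 FPKM. Of 23 tested targets of NRF2, the factor that answers oxidants, 4 rose and 1 fell (9 and 3 without BMSC replicate 2). Hmox1, heme oxygenase, rose from 40.5, 39.98 and 36.05 to 74.6, 78.6 and 76.3 FPKM (log2 change 0.97, SE 0.08, limma adjusted p = 5.15e-06). Nqo1, a widely used marker of that factor, was not called (152 and 177 FPKM). Gsta2, a glutathione transferase named after its values were seen, was listed at 0 in the 3 shRac1 libraries and at 2.62, 2.21 and 1.72 FPKM in shLuci. Oxidised products themselves were not measured.

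Where genes of the integrated stress response changed, they rose. ATF4 is a transcription factor whose translation rises when cells lack amino acids or misfold proteins, and it switches on amino acid transporters, transfer RNA synthetases and stress factors. Of 38 tested members of this list, Atf4 among them, 12 rose and 0 fell (18 and 3 without BMSC replicate 2, 9 to 11 and 0 with any 1 shLuci or shRac1 library left out), with a median of 0.17. Promoter windows of called genes that hold the letters of the composite C/EBP-ATF element, TGATGNAA on either strand, are shown for reading beside the values, with the element in capitals (RefSeq, GRCr8; printed 5′ to 3′ on the strand of the gene).
Chac1 (chr3:126795939-126795996, plus strand): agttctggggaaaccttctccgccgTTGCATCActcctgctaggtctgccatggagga
Trib3 (chr3:161275522-161275579, minus strand): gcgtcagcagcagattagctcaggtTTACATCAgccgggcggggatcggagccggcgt
Pycr1 (chr10:106420911-106420968, minus strand): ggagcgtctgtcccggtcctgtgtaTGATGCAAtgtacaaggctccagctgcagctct
Slc7a1 (chr12:11664433-11664490, plus strand): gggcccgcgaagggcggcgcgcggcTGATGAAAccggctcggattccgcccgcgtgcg
Mars (chr7:65023738-65023795, minus strand): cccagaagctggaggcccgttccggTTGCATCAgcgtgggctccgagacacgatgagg

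These letters occurred in 3.98% of the 33469 promoters of 300 bases, in 10 of the 32 tested ATF4-list genes that have a promoter in the table, and in 5 of the 11 that rose and have one. Slc1a4, Nupr1, Aars, Nars and Pck2, also in this list, hold these letters and were not called. A match describes letters in a window and not binding, and overlap between motifs was not examined. Chac1, which degrades glutathione, read 27.6, 27.0 and 23.1 FPKM in shLuci and 79.4, 80.9 and 75.6 FPKM in shRac1 (SE of the log2 change 0.11, limma adjusted p = 5.75e-07). Trib3, a pseudokinase that restrains ATF4, read 28.6, 24.1 and 25.2 in shLuci and 54.0, 57.3 and 55.2 FPKM in shRac1 (log2 change 1.08, SE 0.12, limma adjusted p = 3.16e-05). The lowest shRac1 library of each stood above the highest shLuci library. Pycr1, which completes proline synthesis, rose from 11.3 to 19.8 FPKM, Slc7a1, a transporter of arginine and lysine, from 16.01 to 22.5, and Mars, the methionine transfer RNA synthetase, from 65.6 to 77.5. These last 3 calls ended after rescaling to a common total and also rested on single libraries: Pycr1 lost its call without shLuci replicate 1 or 2 or shRac1 replicate 1 or 2 (limma adjusted p up to 0.0767), Mars without shLuci replicate 3 or shRac1 replicate 1 or 2 (up to 0.0599), and Slc7a1 without any 1 of the 6 (up to 0.177). Atf4 itself read 294, 272 and 251 in shLuci and 410.1, 428 and 425 FPKM in shRac1 (log2 change 0.63, SE 0.10, limma adjusted p = 0.000807). Sesn2, a leucine sensor that inhibits mTORC1, rose from 23.8 to 46.6 FPKM, and Ppp1r15a, GADD34, which brings the phosphatase that ends the response, from 39.2 to 67.4. Ddit4 (11.1 and 9.16 FPKM) and Phgdh (115 and 86.8 FPKM), both in this list, were not called.

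Folding genes of the endoplasmic reticulum also rose where they were called. Of 23 tested, 4 rose and 0 fell (14 and 0 without BMSC replicate 2), with a median of 0.18. The endoplasmic reticulum stress element, CCAAT and CCACG with 9 bases of any letter between them, on either strand, is rare, being in 22 of 33469 promoters (0.0657%), but lies in 7 of the 18 tested folding genes with a promoter, 2 of them called, whose windows are shown for that reason.
Hspa5 (chr3:38452948-38453016, plus strand): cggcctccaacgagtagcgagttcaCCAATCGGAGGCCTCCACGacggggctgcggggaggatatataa
Hsp90b1 (chr7:23012322-23012494, minus strand): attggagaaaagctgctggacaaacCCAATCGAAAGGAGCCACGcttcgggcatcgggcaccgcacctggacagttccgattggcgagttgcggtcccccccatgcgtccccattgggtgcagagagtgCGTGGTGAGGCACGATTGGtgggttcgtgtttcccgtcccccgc

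Hsp90b1, GRP94, a chaperone of the organelle's lumen, read 390.2, 384 and 395 FPKM in shLuci and 546, 541 and 560.2 FPKM in shRac1 (log2 change 0.49, SE 0.07, limma adjusted p = 0.000236), a call that quantile normalization ended (adjusted p = 0.0676). Herpud1, which takes part in degrading misfolded proteins, rose from 50.5 to 76.3 FPKM, and Pdia6, a disulfide isomerase, from 359 to 511. Hspa5, the chaperone BiP, had a log2 change of 0.25, called with all libraries but not without shLuci replicate 2 (limma adjusted p = 0.0583), after rescaling to a common total (0.145) or after quantile normalization (0.445). Calr, Canx, Dnajc3, Creld2 and Xbp1 also hold the element and were not called.

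Small heat shock proteins split. Cryab, alpha B-crystallin, read 241, 214 and 211 FPKM in shLuci and 74.4, 77.7 and 76.9 FPKM in shRac1 (log2 change -1.53, SE 0.20, limma adjusted p = 0.00014). Hspb2, whose gene starts 471 bases from Cryab on the other strand of chromosome 8, read 9.90, 9.70 and 8.23 in shLuci and 1.05, 2.43 and 2.00 FPKM in shRac1 (log2 change -2.12, SE 0.34, limma adjusted p = 0.000712). Both neighbours were lower in every shRac1 library, and whether reads were counted by strand is not stated in the labels. In the other direction Hspb8, which acts with the co-chaperone BAG3 in clearing aggregates, rose from 6.19 ± 0.552 to 36.6 ± 2.87 FPKM and Hspb7, a small heat shock protein of muscle, from 0.334 ± 0.119 to 1.09 ± 0.0476, while Hspb1, HSP27, read 307, 268 and 235 in shLuci and 364, 377 and 357 FPKM in shRac1 and was not called. Over the 20 tested members of this list 5 rose and 3 fell (8 and 5 without BMSC replicate 2), and 2 to 4 rose with any 1 of the 6 libraries left out, at most 3 unless the library was shLuci replicate 2. Hsf1, Hsp90aa1 and Hspa1a were not called.

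Contractile genes rose where they changed. Of 34 tested smooth muscle and stress fibre genes 10 rose and 0 fell (17 and 3 without BMSC replicate 2), with a median of 0.17. Cnn1, calponin, which binds actin and slows myosin, read 260.4, 250.5 and 243 FPKM in shLuci and 393, 401 and 424 FPKM in shRac1 (log2 change 0.69, SE 0.09, limma adjusted p = 0.000124). Actg2, the gamma actin of gut muscle, read 122, 115 and 104 in shLuci and 208, 211 and 218 FPKM in shRac1 (log2 change 0.90, SE 0.14, limma adjusted p = 0.000646). The groups did not overlap for either gene. Mylk, myosin light chain kinase, rose from 2.30 to 4.51 FPKM, Lmod1, which nucleates actin filaments in smooth muscle, from 42.7 to 62.1, and Synpo2, an actin-binding protein of Z discs, from 0.511 to 3.28. The abundant cytoskeletal genes Actg1 (777 and 662 FPKM), Cald1 (476 and 432) and Myl9 (754 and 888) were not called. Of targets and regulators of YAP, a coactivator that follows cell tension, 22 were tested, 0 rose and 7 fell, with a median of -0.01, and 4 fell without shLuci replicate 2 or any 1 shRac1 replicate. Without BMSC replicate 2 this list had 5 called higher and 8 lower. Nuak2, a kinase that tunes myosin phosphorylation, fell from 14.97, 14.9 and 13.8 to 3.87, 4.39 and 3.89 FPKM (log2 change -1.73, SE 0.10, limma adjusted p = 1.04e-07). Tead2, a DNA-binding partner of YAP, fell from 19.7 to 8.04 FPKM and Tgfb2, a ligand of the TGF-beta family, from 161 to 87.7. The best known target Ctgf was not called (1308 and 1111 FPKM), nor was Ankrd1 (10.5 and 15.5).

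**Figure D3:**
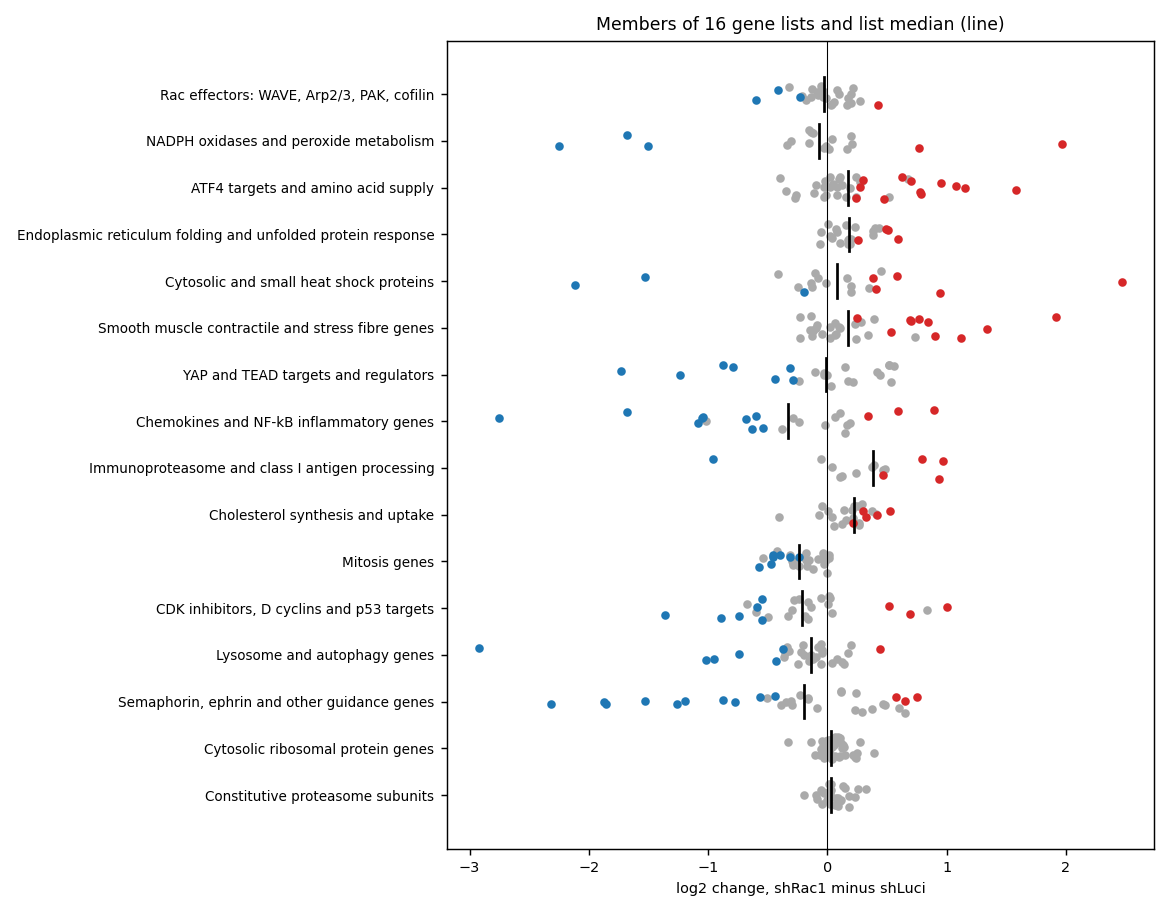
Log2 change, shRac1 minus shLuci, of every tested member of 16 gene lists (red called higher, blue called lower, grey not called), with the list median as a black line. ATF4 targets, folding genes, contractile genes and cholesterol genes hold red points and no blue ones, mitosis genes and YAP targets hold blue points and no red ones, and no ribosomal protein or proteasome gene was called.

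Matrix genes changed in both directions. Of 29 tested collagens and collagen-modifying enzymes 4 fell and 2 rose (7 and 8 without BMSC replicate 2), and with any 1 of the 6 libraries left out 4 fell and 0 to 1 rose, 0 when it was shRac1 replicate 2. Col6a1, a chain of the beaded collagen VI, read 278, 295 and 273 FPKM in shLuci and 146, 133 and 125 FPKM in shRac1 (log2 change -1.07, SE 0.23, limma adjusted p = 0.00667). Its partner chain Col6a2, 97.9 kb away on chromosome 20 in the table's positions, read 252, 252 and 228 in shLuci and 144, 138 and 127 FPKM in shRac1 (log2 change -0.84, SE 0.09). Col15a1, of basement membranes, fell from 18.0 to 4.33 FPKM, and Col5a3, a minor fibrillar chain, from 19.6 to 8.70. Col6a1 and Col6a2 were lower in all 3 shRac1 libraries, and Col6a3, another listed chain of collagen VI, was not analysed here. Bone and cartilage collagens Col11a1 (202 and 111 FPKM) and Col12a1 (176 and 103) were not called. Fibrillin- and cell-binding glycoproteins went both ways, 6 of 25 higher and 5 lower (8 and 11 without BMSC replicate 2). Fbln2, fibulin 2, read 196, 211 and 194 in shLuci and 60.7, 58.1 and 53.6 FPKM in shRac1 (log2 change -1.80, SE 0.12, limma adjusted p = 4.28e-07), whereas Fbln5, which guides elastic fibre assembly, rose from 133 to 200.2. Tnc, tenascin C, fell from 165 to 65.2 FPKM and Smoc1 from 8.07 to 2.90, while Thbs2, thrombospondin 2, rose from 46.6 to 99.6 and Smoc2 from 30.1 to 67.6. The paralogues thus differed in sign within the fibulins and within the SMOCs.

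Small leucine-rich proteoglycans, which bind collagen and growth factors, followed the same mixture, 3 of 8 tested higher and 3 lower. Ogn, osteoglycin, read 14.04, 16.1 and 18.2 FPKM in shLuci and 38.5, 42.6 and 50.1 FPKM in shRac1 (log2 change 1.41, SE 0.22, limma adjusted p = 0.000542). Its neighbour Omd, osteomodulin, 8.35 kb away on chromosome 17, rose from 0.389 to 1.24 FPKM. Aspn, asporin, rose from 3.11 to 13.3 FPKM, and another locus, Aspnl1, may share its reads. Bgn, biglycan, fell from 1133 to 846 FPKM, the largest loss in FPKM among called genes without overlap of the groups, and this call ended under quantile normalization (limma adjusted p = 0.0955). Of 28 tested integrin, laminin, nidogen and cadherin or other adhesion genes 6 rose and 2 fell (12 and 6 without BMSC replicate 2): Lama5, a basement membrane laminin chain, read 2.84, 3.10 and 2.95 in shLuci and 14.5, 12.4 and 11.9 FPKM in shRac1 (log2 change 1.95, limma adjusted p = 2.96e-05). Itga5, the fibronectin receptor subunit, rose from 52.7 to 97.6 FPKM, and Itga7, a laminin receptor subunit of muscle, fell from 28.8 to 16.8. Of 16 tested genes of plasminogen activation, coagulation control and the serpins 5 rose and 3 fell (7 and 5 without BMSC replicate 2), with Tfpi, an inhibitor of tissue factor, rising from 3.92 to 10.2 FPKM and F2r, the thrombin receptor PAR1, falling from 61.9 to 35.7.

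Genes of the skeletal lineages did not move as a group. Of 19 tested bone and mineral genes 3 rose and 5 fell (4 and 9 without BMSC replicate 2), with a median of -0.21. Mgp encodes matrix Gla protein, which keeps soft tissue from calcifying, and read 185, 160.0 and 169.9 FPKM in shLuci and 0.616, 0.488 and 0.124 FPKM in shRac1, the largest change in the comparison. Alpl, the alkaline phosphatase that frees phosphate for mineral, read 30.1, 30.3 and 25.9 in shLuci and 17.0, 16.7 and 16.03 FPKM in shRac1 (log2 change -0.77, SE 0.10, limma adjusted p = 0.000131). Dlx5, a homeobox factor of osteoblasts, fell from 19.6 to 12.3. Msx2, a homeobox factor of osteoblast progenitors, rose in contrast from 1.499, 1.06 and 1.37 to 7.999, 8.77 and 8.18 FPKM (log2 change 2.29, SE 0.15, limma adjusted p = 4.39e-07), as did the ligand Bmp2, from 3.77 to 7.14. The 3 shRac1 values of Msx2 all exceeded the 3 shLuci values. Spp1, osteopontin, was not called (575 and 484 FPKM). For cartilage, Sox9, the factor that commits cells to chondrocytes, read 40.5, 40.9 and 36.9 in shLuci and 12.8, 12.4 and 11.9 FPKM in shRac1 (log2 change -1.63, SE 0.17, limma adjusted p = 2.86e-05), while Sox6, its partner in chondrocytes, rose from 0.692 to 1.81, and Acan, aggrecan, was not called. For fat, Lpl, lipoprotein lipase, fell from 2.17 to 0.363 FPKM and Fabp3, a fatty acid carrier, rose from 101 to 189.

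Homeobox and patterning factors rose more often than they fell. Of 22 tested 9 rose and 2 fell (12 and 5 without BMSC replicate 2), and 6 rose with any 1 of the 6 libraries left out, while 1 fell without shLuci replicate 2, with a median of 0.30. Hoxc6, Hoxc4 and Hoxc10, of the same HOXC cluster on chromosome 7, rose by log2 changes of 0.72, 0.76 and 0.73, the last from 37.4, 33.1 and 31.5 FPKM in shLuci to 56.3, 58.8 and 54.3 FPKM in shRac1. Hoxc8, which lies 15017 bases from Hoxc6, had a log2 change of 0.84, called with all libraries but not without any 1 of the 6 (limma adjusted p up to 0.138), and Hoxc9 was not called (12.6 and 17.4 FPKM). Meis2 and Meis1, cofactors of HOX proteins, moved apart: Meis2 rose from 5.42 to 14.5 FPKM and Meis1 fell from 40.5 to 25.1.

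Ligands, receptors and inhibitors of the TGF-beta and BMP pathways changed in both directions, 7 of 34 higher and 10 lower (10 and 13 without BMSC replicate 2). Among ligands, Tgfb1 read 124, 118 and 103 FPKM in shLuci and 71.7, 72.9 and 66.9 FPKM in shRac1 (log2 change -0.70, SE 0.09, limma adjusted p = 0.000167). Bmp4 fell from 21.2 to 10.0 FPKM. Of the family named latent TGF-beta binding proteins, Ltbp2 rose from 133 to 234 FPKM, and Ltbp3 from 21.6 to 30.7. In the same family Ltbp1 rose from 61.2 to 110.1 FPKM, a call lost without shLuci replicate 1 or 3 or shRac1 replicate 1 or 2 (limma adjusted p up to 0.0733), and Ltbp4 fell from 3.46 to 1.97 FPKM, a call lost without shLuci replicate 1 or 2 or shRac1 replicate 2 or 3 (up to 0.0879). Among inhibitors, Bambi, a decoy receptor, fell from 15.5 to 10.6 FPKM. Id2, an inhibitor of helix-loop-helix factors, rose from 13.4 to 33.2 FPKM.

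Wnt pathway genes changed in both directions. Of 25 tested 8 rose and 5 fell (11 and 6 without BMSC replicate 2), but 3 fell without any 1 library other than shLuci replicate 3. Sfrp1, a secreted antagonist, and Nkd1, an intracellular inhibitor that Wnt signals induce, read 11.2, 10.7 and 10.5 and 7.89, 8.83 and 7.74 FPKM in shRac1, against means of 1.70 and 1.72 FPKM in shLuci. Rspo3, a secreted amplifier, rose from 1.39 to 5.21 FPKM and the receptor Fzd4 from 2.16 to 5.13, whereas the receptors Fzd1 (65.1 to 35.9) and Lrp5 (10.1 to 5.86) fell, calls that ended after rescaling to a common total. Axin2, the usual readout of beta-catenin activity, was not called (2.85, 3.22 and 2.69 FPKM in shLuci and 2.56, 2.21 and 2.53 in shRac1, limma adjusted p = 0.627). Notch genes fell where they changed: of 12 tested 0 rose and 4 fell (0 and 5 without BMSC replicate 2), with Nrarp, a feedback inhibitor, from 2.88 to 1.06 FPKM and the effector Hes1 from 78.8, 70.7 and 59.3 to 46.8, 43.9 and 45.6 FPKM (log2 change -0.60, SE 0.11, limma adjusted p = 0.00252). The receptors Notch1, Notch2 and Notch3 were not called. In the insulin-like growth factor system Igfbp2 rose with Igfbp6, from 2.56 to 12.8 FPKM, while Pappa, the protease that frees the ligand from binding proteins, fell from 4.18 to 0.895 and Igfbp3 from 1.14 to 0.0132.

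Readouts of ERK signalling fell for some genes and not for others. Spry4, a feedback inhibitor of receptor tyrosine kinases, read 21.1, 22.4 and 21.5 FPKM in shLuci and 8.74, 7.75 and 7.04 FPKM in shRac1 (log2 change -1.42, SE 0.13, limma adjusted p = 1.02e-05). Dusp4, a nuclear ERK phosphatase, fell from 3.36 to 0.336 FPKM, and the ETS factors Etv4 and Etv5 by log2 changes of -0.85 and -0.68. In all 5 of 17 tested feedback genes fell and 2 rose (7 and 5 without BMSC replicate 2), Spry2 and Phlda1 being among those not called. Immediate early genes, which serum and handling switch on within minutes, were split at 6 higher and 8 lower of 23: Klf10, a target of TGF-beta, fell from 13 to 5.41 FPKM and Junb from 70.0 to 48.4, Myc rose from 19.3 to 31.7, and Fos (157 and 169) and Egr1 (132 and 143) were not called.

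Of the chemokine and NF-kB genes more were called lower than higher. Of 22 tested 9 fell and 3 rose (12 and 3 without BMSC replicate 2), with a median of -0.33. Ccl2, which draws monocytes, read 22.6, 22.3 and 23.3 FPKM in shLuci and 2.22, 3.01 and 3.80 FPKM in shRac1, and Ccl7, its neighbour 9.22 kb away on chromosome 10, fell from 2.24 to 0.363 FPKM. Il1rl1, the receptor and decoy for interleukin 33, read 152, 159 and 183 in shLuci and 76.6, 78.6 and 82.2 FPKM in shRac1 (log2 change -1.05, SE 0.20, limma adjusted p = 0.00228). Neither Ccl2 nor Il1rl1 overlapped between the groups. Of the NF-kB subunits, Nfkb2 fell from 15.1 to 9.23 FPKM and Relb, its partner in the noncanonical pathway, from 2.43 to 0.932, while Nfkb1 was not called (18.3 and 14.9). Cxcl1, which draws neutrophils, fell from 36.2 to 24.8 FPKM, and Cxcl12, which retains blood stem cells in marrow, from 24.97 to 16.4, a call that ended after rescaling to a common total. Icam1, an adhesion receptor for leukocytes, and Ptx3, a soluble pattern receptor, rose, from 16.4 to 25.01 and from 3.39 to 6.71 FPKM. A kappaB motif was found in 4.18% of all promoters and in 8 of the 17 tested genes of this list with one, 3 of the 6 that fell and 1 of the 3 that rose. Nfkbia, Nfkbiz, Nfkb1 and Tnfaip3 also hold the motif and were not called. Windows of 2 fallers and of the riser show the letters in capitals (RefSeq, GRCr8).
Cxcl1 (chr14:17479370-17479430, minus strand): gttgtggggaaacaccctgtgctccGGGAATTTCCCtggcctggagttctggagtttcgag
Nfkb2 (chr1:255108329-255108388, plus strand): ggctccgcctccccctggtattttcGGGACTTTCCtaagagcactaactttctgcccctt
Ptx3 (chr2:152797524-152797584, plus strand): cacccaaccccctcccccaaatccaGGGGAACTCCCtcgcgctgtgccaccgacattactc

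Cytokines of the interleukin 6 family split by ligand. Lif, leukemia inhibitory factor, read 22.8, 22.6 and 24.6 FPKM in shLuci and 4.46, 4.51 and 4.70 FPKM in shRac1 (log2 change -2.23, SE 0.42, limma adjusted p = 0.00236). That SE comes from the spread pooled over all 15 libraries and is not the spread of these 6 values. Il6 read 3.30, 3.47 and 3.77 in shLuci and 10.1, 8.37 and 11.8 FPKM in shRac1 (log2 change 1.39, SE 0.22, limma adjusted p = 0.000758). Lif was lower in all 3 shRac1 libraries and Il6 higher, each without overlap. Osmr, the oncostatin M receptor, rose from 1.48 to 4.76 FPKM, and Socs3, which these cytokines induce, was not called (7.38 and 5.84). Of 14 tested genes that cut and load peptides for class I molecules 4 rose and 1 fell (8 and 1 without BMSC replicate 2), with a median of 0.38: the immunoproteasome subunits Psmb9 and Psmb8 rose from 1.36 to 3.11 and from 1.81 to 3.90 FPKM, and the peptide transporter Tap2, 1.77 kb from Psmb8, from 1.46 to 2.89. Tap1, only 190 bases from Psmb9, was not called (3.72 and 4.46 FPKM). Of 18 tested interferon-response genes 4 rose, Ifit2 from 3.34 to 8.78 FPKM among them, and 1 fell (8 and 3 without BMSC replicate 2), a fall kept only without shLuci replicate 3 or shRac1 replicate 1 among the fits that left out 1 of the 6 libraries.

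Other secreted signals shifted gene by gene. In the prostaglandin pathway the cyclooxygenase Ptgs1 read 1.33, 1.68 and 1.96 FPKM in shLuci and 7.20, 6.58 and 6.44 FPKM in shRac1 (log2 change 1.76, SE 0.11, limma adjusted p = 4.12e-07), while the EP3 receptor gene fell, as given above. Of 23 tested trophic factors 5 rose and 7 fell (8 and 11 without BMSC replicate 2): Vegfd, a lymphatic growth factor, rose from 0.475 to 4.08 FPKM, Bdnf, a neurotrophin, from 4.54 to 7.32, and Pgf, placental growth factor, from 37.3 to 58.6. Gas6, the ligand of the AXL receptor, fell from 143 to 71.0 FPKM, and Pdgfd, a platelet-derived growth factor, from 6.25 to 1.58. Vegfa was not called, although its groups did not overlap (73.4, 76.7 and 75.6 FPKM in shLuci and 50.1, 45.6 and 42.8 in shRac1). Of 32 tested guidance genes 10 fell and 3 rose (15 and 7 without BMSC replicate 2), with a median of -0.20. Efnb1, ephrin B1, read 50.1, 50.6 and 50.7 in shLuci and 14.5, 13.6 and 12.3 FPKM in shRac1 (log2 change -1.87, SE 0.08, limma adjusted p = 2.54e-08), Slit3 fell from 29.6 to 12.0 FPKM and its receptor Robo2 from 4.30 to 0.461. Sema3f, a semaphorin, rose from 11.04 to 18.9 FPKM.

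**Figure D4:**
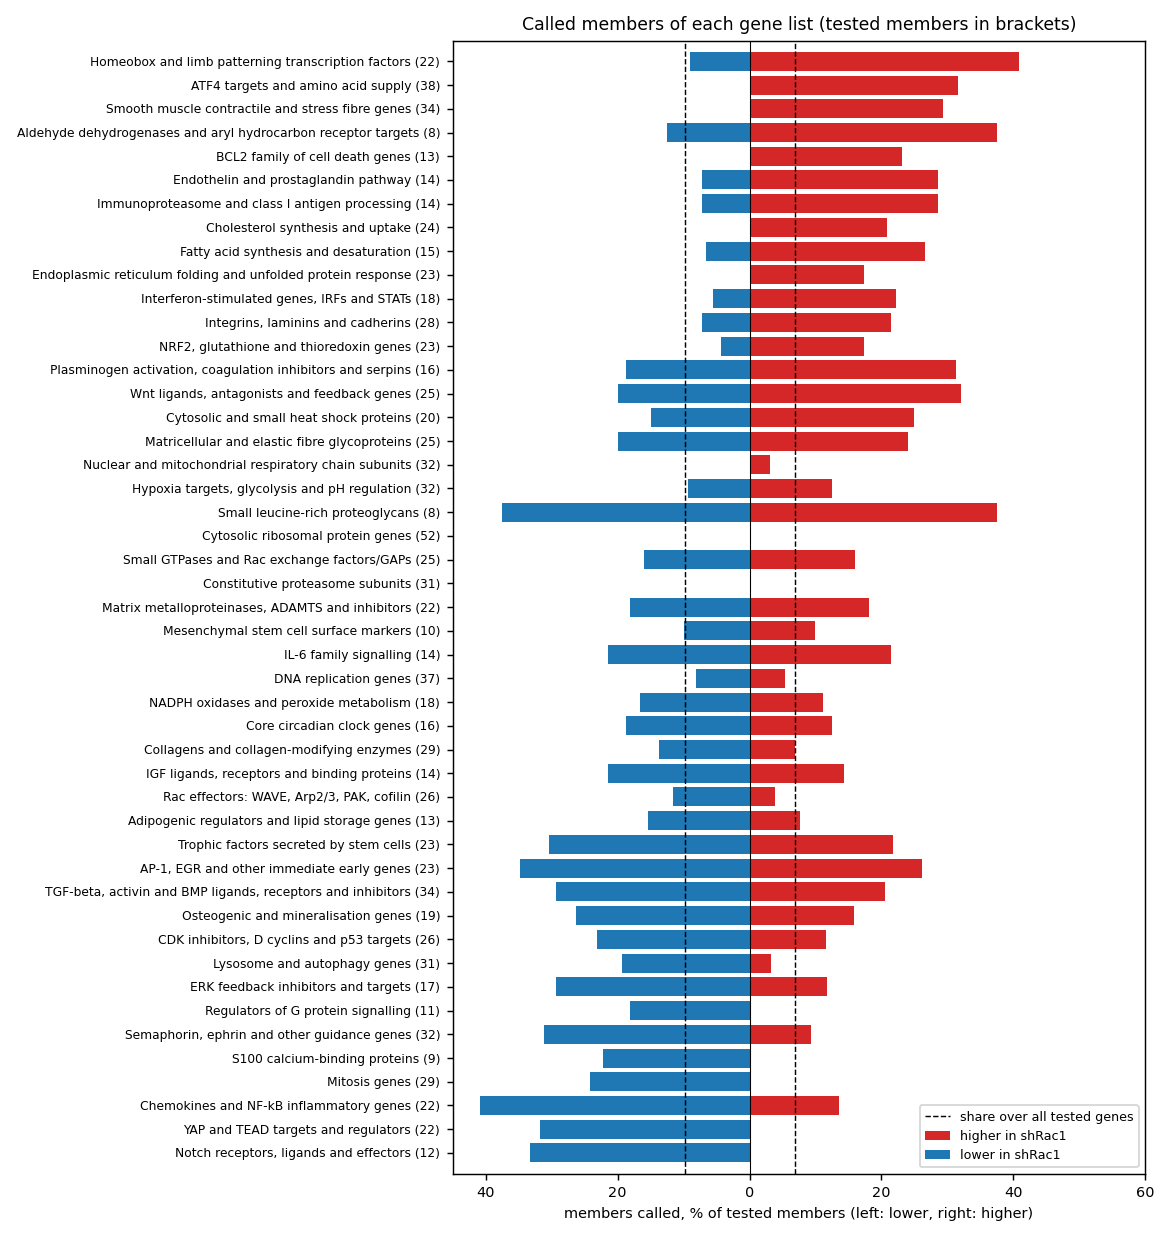
Share of the tested members of each gene list called higher (red, right) or lower (blue, left) in shRac1, in percent, for lists with at least 8 tested members. Dashed lines give the share over all tested genes, 6.92% higher and 9.82% lower. With all libraries 9 of 22 homeobox factors were called higher and 9 of 22 chemokine and NF-kB genes lower, while ribosomal protein and proteasome genes show no bar.

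Called mitosis genes were all lower in shRac1. Of 29 tested mitosis genes 7 fell and 0 rose (16 and 0 without BMSC replicate 2; 3 to 5 fell with any 1 of the 6 libraries left out, and 3 or 4 unless it was shLuci replicate 1), with a median of -0.24. Aurka, the spindle pole kinase, read 36.7, 34.3 and 32.8 FPKM in shLuci and 23.3, 23.9 and 22.0 FPKM in shRac1 (log2 change -0.57, SE 0.09, limma adjusted p = 0.000432). Cdk1 was not called (199 and 162 FPKM). Of 26 tested CDK inhibitors, D cyclins with their kinases and p53 targets 6 fell and 3 rose (10 and 4 without BMSC replicate 2). Cdkn1a, the inhibitor p21, read 121, 106 and 105 in shLuci and 65.5, 67.7 and 64.0 FPKM in shRac1 (log2 change -0.74, SE 0.12, limma adjusted p = 0.000804), Phlda3, a p53 target that restrains AKT, fell from 172 to 92.0 FPKM, and Cdkn2b, the inhibitor p15, from 7.18 to 2.71. Of 37 DNA replication genes 2 rose and 3 fell (3 and 6 without BMSC replicate 2), and with any 1 of the 6 libraries left out 0 to 1 rose and 0 to 3 fell. Over all tested genes 6.92% rose and 9.82% fell (17.0% and 20.4% without BMSC replicate 2).

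In lipid metabolism 5 of 24 cholesterol synthesis genes rose and 0 fell (14 and 1 without BMSC replicate 2, 1 to 3 rising with any 1 of the 6 left out), and among fatty acid genes Acss2, which makes acetyl-CoA, rose from 4.93 to 11.8 FPKM, Scd, a desaturase, from 9.95 to 22.1, and Cpt1a, which carries fatty acids into mitochondria, from 2.85 to 5.42. Of 32 hypoxia and glycolysis genes 4 rose and 3 fell (8 and 4 without BMSC replicate 2), and 2 rose without shLuci replicate 3 or shRac1 replicate 1 or 2. The shares over all tested genes were 6.92% and 9.82% (17.0% and 20.4% without BMSC replicate 2). Slc16a3, the lactate exporter MCT4, went from 6.71, 6.15 and 5.01 to 0.249, 0.332 and 0.353 FPKM (log2 change -2.99, SE 0.15, limma adjusted p = 5.52e-08). Pfkm and Pfkp, isoforms of phosphofructokinase, moved apart (16.3 to 26.2 and 19.9 to 10.0 FPKM). Of 31 tested lysosomal genes 6 fell and 1 rose (13 and 3 without BMSC replicate 2): Npc2, which moves cholesterol out of the lysosome, read 274, 236 and 224 in shLuci and 125, 126 and 126 FPKM in shRac1 (log2 change -0.95, SE 0.17, limma adjusted p = 0.00155), Lamp2, a lysosomal membrane protein, fell from 132 to 79.2 FPKM, and Ctsl, a lysosomal protease, rose from 189 to 258. None of 52 ribosomal protein genes and none of 31 constitutive proteasome genes was called, with medians of 0.03 and 0.03, while quantile normalization called 1 and 2 of them higher and the fit without BMSC replicate 2 called 3 and 4.

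Markers of other cell types also moved. Msln, the mesothelial surface protein mesothelin, read 1.08, 0.725 and 0.855 FPKM in shLuci and 11, 11.8 and 10.5 FPKM in shRac1, Krt8, a keratin of simple epithelia, rose from 2.82 to 7.502 FPKM, and Upk1b, a uroplakin, from 2.81 to 6.88. Krt7 was not called (4.26 and 5.45 FPKM). Of 10 Schwann and neural markers listed 4 were tested and 3 fell, their sum running from 39.3 to 44.4 FPKM in shLuci and from 29.8 to 35.9 FPKM in shRac1: Nes, nestin, fell from 9.46 to 2.09 FPKM, S100b from 1.62 to 0.0267, and Tubb3, a neuronal tubulin that other cells also make, from 4.41 to 2.44. Gzmb, granzyme B, a protease of cytotoxic lymphocytes, was the only 1 of 12 lymphoid markers tested, and fell from 15.3, 14.5 and 15.6 to 2.27, 2.94 and 2.76 FPKM. The part of such cells in the other results was not tested.

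Uninfected cells had a mean between those of the hairpin groups for most called genes. The BMSC mean fell between the shLuci and shRac1 means for 520 of the 797 genes that rose, at or beyond the shRac1 mean for 132, and at or beyond the shLuci mean for 145. Among the 1131 that fell these numbers were 757, 273 and 101. All these BMSC means include BMSC replicate 2, which stood apart, and no counts without it are given. Chac1 read 68.3, 88.1 and 68.7 FPKM in BMSC and Nox4 1.58, 1.28 and 1.43 FPKM, and neither was called between shRac1 and BMSC (limma adjusted p = 0.651 and 0.983). Igfbp6 had a BMSC level between the hairpin groups (25.1, 49.9 and 22.8 FPKM), and so by their means had Penk (1069 FPKM), S100a16 (7.80) and Lif (19.1). The comparison with BMSC adds infection to the hairpin, and these counts share the shLuci and shRac1 libraries with the calls, so they are a description. Choosing genes with a wide gap between the hairpin groups also favours a BMSC mean inside it. The share over all tested genes was not computed.

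The same pair of hairpins was also sequenced after OGD, in 6 libraries that share none with the comparison above. There limma called 856 genes (7.43%), 443 higher (3.85%) and 413 lower (3.59%) in shRac1+OGD than in shLuci+OGD. Without BMSC replicate 2 these counts were 1048 and 1425. Of the 797 genes that rose in normal culture, 216 were called lower after OGD (27.1%, and 52.3% of all 413 called lower there) and 31 higher. Of the 1131 that fell, 266 were called higher after OGD (23.5%, and 60.0% of all 443) and 17 lower. Without BMSC replicate 2, of 1952 genes that rose 618 were called lower after OGD and 128 higher, and of 2344 that fell 627 were called higher and 122 lower. The log2 changes in the 2 conditions had r = -0.51 across the 11515 genes, which are not independent replicates. The difference of the differences, tested as an interaction, was called for 1922 genes (16.7%), 1022 with a positive sign (8.88%) and 900 with a negative one (7.82%). Without BMSC replicate 2 the interaction was called for 1994 positive and 2222 negative. Of the 797 genes 624 were among the 1922, and of the 1131 genes 794. The interaction contains the normal-culture difference and its 6 libraries, so this overlap is partly built in and is a description. Igfbp6, higher in shRac1 in normal culture, read 82.7, 97.1 and 80.1 FPKM in shLuci+OGD and 26.9, 23.5 and 29.1 FPKM in shRac1+OGD. Ptgr1 read 424, 447 and 402 in shLuci+OGD and 256, 261 and 277 FPKM in shRac1+OGD, and Efnb1 7.42, 8.24 and 8.18 in shLuci+OGD and 24.6, 24.0 and 25.1 FPKM in shRac1+OGD. For these 3 genes the sign after OGD was the reverse of that in normal culture, each called in both conditions (limma adjusted p after OGD = 0.000352, 0.00815 and 2.07e-07).

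Of the 34 contractile genes tested, 15 were called higher in shRac1 after OGD and 1 lower. Of the 10 that rose in normal culture 5 were also called higher after OGD and 1, Des, the muscle filament protein desmin, lower (log2 change 1.34 in normal culture and -1.09 after OGD), and the interaction was called for 13 of the 34. Cnn1 read 262, 249 and 236 FPKM in shLuci+OGD and 410.2, 429 and 431 FPKM in shRac1+OGD (log2 change 0.77, limma adjusted p = 0.000131), and Actg2 85.4, 94.8 and 91.6 in shLuci+OGD and 202, 206 and 209 FPKM in shRac1+OGD (log2 change 1.18, limma adjusted p = 0.000181). Both were higher in the libraries labelled shRac1 in each condition, and the interaction was not called for either (limma adjusted p = 0.812 and 0.446). Of the 22 YAP genes 10 were called higher in shRac1 after OGD and 0 lower, against 0 and 7 in normal culture.

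**Figure D5:**
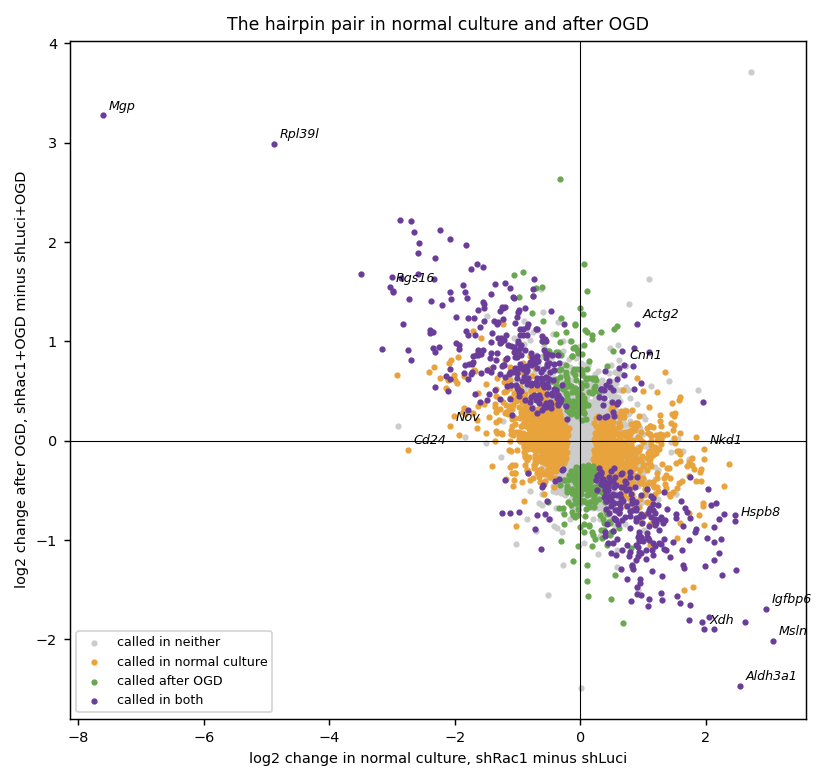
Log2 change of each tested gene between the hairpins in normal culture (x axis, shRac1 minus shLuci) and after OGD (y axis, shRac1+OGD minus shLuci+OGD), from 12 libraries that the axes do not share. Purple genes were called in both conditions. They lie mostly in the upper left and lower right of the plot, with Mgp at -7.61 in normal culture, Msln at 3.07 there, and Actg2 and Cnn1 among the purple genes above 0 on both axes.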

How the data were processed

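Total RNA of 15 samples in 5 groups of 3 was sequenced with Illumina libraries, per the labels' protocols. The submitters' processing notes name HISAT2, with no version, and StringTie 1.2.3. Per the file headers, the authors deposited gene-level FPKM of every library. Their deposited table for this pair of groups gives each gene's log2 fold change, ratio (fold), p-value and q-value, from a test that is not stated. All 1160 log2 values of that table equal the difference of group means of log2(FPKM + 1). Genome build, annotation version and strand setting: not given in the sources used here. Read depth is unknown, so no counting interval was computed.

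FPKM were used as deposited. A gene was kept if 3 or more of 15 libraries reached 1 FPKM (11515 of 12169), and log2(FPKM + 0.5) was fitted with limma 3.58.1 in R 4.3.3 (lmFit and eBayes with a mean-variance trend; 5 group means, all 15 libraries, 10 residual degrees of freedom). Two-sided p-values were adjusted by Benjamini and Hochberg over all genes tested, and errors of log2 changes are limma standard errors. The fit was tested on simulated data. Rac1 was also tested by exact permutation of 3 against 3.

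The 55 gene lists hold 1422 entries, of which 1073 were tested, 48 were below the filter and 301 had no row to test. Lists, members and the rule for named genes were chosen with earlier results of these data known. The rule takes the 25 largest called rises and falls, the 15 largest called differences in FPKM each way (both with a group mean of at least 5 FPKM and no overlap of the groups), members of the lists, and the 10 strongest interactions each way. Gsta2 was named after its values were seen. Alternatives were pseudocounts of 1 and 0.1, no filter, a mean of at least 5 FPKM, 3 rescalings, a fit of the compared groups, fits without BMSC replicate 2 or BMSC, a replicate block, library weights, no trend, and leaving out each library. Promoters of 300 bases came from RefSeq (GRCr8), matched by symbol, and each motif was searched on both strands.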

Additional observations from a re-analysis of the deposited data

Results flagged for a closer look

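The hairpin difference itself differed between normal culture and OGD for 1922 genes, by a test of the interaction (shRac1+OGD minus shLuci+OGD, less shRac1 minus shLuci) in the limma fit at adjusted p below 0.05. The values that follow are interaction log2 changes of the 10 genes with the smallest p in each direction. All 20 had opposite signs, called in both conditions, a pattern that choosing genes by the interaction p favours. In the positive direction, where the fall in shRac1 turned to a rise after OGD, Mgp had 10.88, Aard 4.90, Rassf4 4.65, Rgs16 4.57, Aplp1, an amyloid precursor-like membrane protein, 3.57, the ephrin gene Efnb1 3.44, Sdc3, a heparan sulfate proteoglycan, 3.02, Dync1i1, a dynein intermediate chain, 2.90, Ddah1, which degrades methylated arginine, 2.25, and the ligand Tgfb2 2.21. In the negative direction Msln had -5.09, Aldh3a1 -5.02, Cdhr1 -4.45, Anpep -4.04, Xdh -3.87, Ptgs1 -3.41, Aoc3 -3.34, Hspb8 -3.29, Slc38a4 -2.99 and Tgfbi, a matrix protein induced by TGF-beta, -2.53. Ptgs1 read 1.33, 1.68 and 1.96 FPKM in shLuci and 7.20, 6.58 and 6.44 in shRac1, then 11.4, 12.7 and 13.1 in shLuci+OGD and 3.61, 3.63 and 3.54 in shRac1+OGD. Rassf4 read 32.1, 32.9 and 30.0, then 3.48, 3.37 and 3.75, then 2.85, 2.90 and 2.54, then 9.84, 9.15 and 10.3 FPKM in the same order of groups. The cause of these reversals was not tested.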

How the results depend on the processing

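Of 374 called genes in the lists or named, 251 kept their call in each of the 19 alternatives that tested them and 123 lost it in at least 1, with no change of sign among the 7000 values. Requiring a mean of at least 5 FPKM tests fewer genes and gave 484 higher and 633 lower in normal culture, 260 and 210 after OGD, and 584 and 536 for the interaction. Spread estimates without BMSC replicate 2 gave 1952 and 2344, 1048 and 1425, and 1994 and 2222 in that order, and without the BMSC group 1929 and 2310, 1028 and 1416, and 1984 and 2191. A fit of the compared groups only gave 1699 and 2031 in normal culture and 900 and 1200 after OGD. Library weights, whose estimation did not converge, gave 3949 and 4290, 1396 and 2008, and 3069 and 3604, and moved Rac1 to a called -0.07. Rescaling to a common total gave 262 lower after OGD. Leaving out 1 library of the hairpin groups gave 562 to 602 higher and 785 to 919 lower in normal culture, 291 to 315 and 263 to 299 after OGD, 812 to 900 and 681 to 738 for the interaction, and -0.14 to -0.05 for Rac1. After OGD the count moved by over 1.5 times without shLuci+OGD replicate 2 (265 lower) and without shRac1+OGD replicate 1 (291 higher, 263 lower), 2 (292 and 268) or 3 (275 lower). Replicate numbers did not pair the samples (same-number correlations of deviations from -0.171 to 0.082, with 1 of 6 libraries closest to its own number), and a replicate block gave 741 higher and 1049 lower. Depth is unknown, so the counting error of low FPKM cannot be given.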
